A study of Rattus norvegicus with 12 samples.

Results

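The BCL2 family sets whether the outer membrane of the mitochondrion stays closed or is opened during apoptosis, and it was followed here through 10 genes in rat hippocampal neurons after oxygen and glucose deprivation (OGD), a culture model of ischemia. The members were taken by gene name: the protective Bcl2, Bcl2l1 and Mcl1, the pore-forming Bax and Bak1, and the BH3-only genes Bid, Bad, Bbc3, Pmaip1 and Bcl2l11. Each of them had a probe, so they are 10 of the 15154 genes that could be named on the array. A gene with several probes was represented by the one with the highest mean log2 intensity, a choice that used level and not response.

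As background, Bax and Bak1 proteins assemble into the pore that releases cytochrome c, and the protective proteins hold them in check. BH3-only proteins are the sensors of damage: they bind the protective proteins or act on Bax and Bak1 directly, and several of them are switched on by transcription in dying neurons. Others, such as Bid and Bad, are known to be controlled largely by cleavage or phosphorylation, which an expression array does not measure.

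Hippocampal cultures were prepared from Wistar rat embryos, E18 by the labels and E18 to E19 by the study's methods, and kept in Neurobasal medium until they were mature. OGD cultures spent 2 h in a glucose-free saline buffer in an anaerobic chamber, and control (Ctrl) cultures spent the same time in a buffer with glucose in a normal incubator. Both were then returned to conditioned medium for 7 h or 24 h. This gave the groups Ctrl 7h, OGD 7h, Ctrl 24h and OGD 24h, with 3 arrays each and no deletion or drug in any of them. The study's methods name 3 independent cultures as the biological replicates. They do not say whether the groups share these cultures. The study chose these times as lying before and after the onset of cell death, and the cultures are not pure neurons, since glial cells grow in them.

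The measurement was the intensity of 30367 probes on 12 one-color arrays, given below as log2 intensity minus the median of the array, so that a value of 0 is the array's median probe. Median probe intensity was between 176 and 294.2 units on 10 arrays, 121 on OGD 7h replicate 1 and 75.25 on OGD 24h replicate 1, and between 73.3% and 83.9% of the probes of an array were well above background. Each of the 6 slides held a Ctrl and an OGD array that shared time and number. All 7 h arrays were scanned on 1 day and all 24 h arrays on another, so levels at 7 h and 24 h cannot be told apart from the day of the scan. OGD 7h replicates 1 and 2 were scanned 211 minutes before the Ctrl array of their slide, and OGD 24h replicate 1 was scanned 177 minutes before. On these slides OGD cannot be told apart from the time of the scan. Of the 9 neuron markers measured, none passed in the higher direction. After OGD 2 were lower at 7 h and 4 at 24 h, where 7.03% and 6.19% of all probes were lower. The 9 markers had median log2 differences of -0.65 and -0.77. Their summed level, in multiples of the array median, ran from 567.3 to 743.5 in Ctrl 7h, 523 to 722.3 in OGD 7h, 624.7 to 839.9 in Ctrl 24h and 303.9 to 616 in OGD 24h. All 9 were well above background on every array, as were all 7 astrocyte markers, whose summed level ran from 715.7 to 771.6 in Ctrl 7h, 819.5 to 970.7 in OGD 7h, 652.3 to 878.5 in Ctrl 24h and 421.2 to 965.1 in OGD 24h. The 8 microglia markers summed to between 14.7 and 15.45 in Ctrl 7h, 15.2 and 26.96 in OGD 7h, 19.98 and 24.61 in Ctrl 24h, and 24.02 and 33.89 in OGD 24h, and Ptprc was well above background on no array. Of 8 oligodendrocyte and 8 vascular or fibroblast markers, 7 of each were well above background on every array. The oligodendrocyte markers summed to between 177.8 and 187 in Ctrl 7h, 105.1 and 222.7 in OGD 7h, 213.9 and 315.2 in Ctrl 24h, and 249.3 and 444.1 in OGD 24h. The vascular or fibroblast markers summed to between 39.21 and 128.5 in Ctrl 7h, 55.82 and 170.7 in OGD 7h, 33.25 and 118.4 in Ctrl 24h, and 108.2 and 181.6 in OGD 24h. The part of the cell types in the differences below was not tested, and in a whole culture fewer cells of a type and less RNA per cell cannot be told apart.

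The test was passed by 1 of the 10 members at each time, and by none at both times. Bak1 was higher after OGD at 7 h and Bax at 24 h, each by less than 1.5-fold, and both had every OGD array above every Ctrl array at both times, as had 3.32% of all probes. No protective member and no BH3-only member passed the test at either time. The test was limma's moderated test on all 12 arrays, called at an unadjusted two-sided p under 0.05, a level passed in the higher direction by 4.79% of all probes at 7 h and 7.51% at 24 h, and in the lower direction by 7.03% and 6.19%. Against that background, 1 of 10 members was higher and 0 lower at each time. After Benjamini-Hochberg adjustment over the 30367 probes, 0% of probes passed at 7 h and 0% at 24 h, and no member had an adjusted p below 0.303. With a change of at least 2-fold required as well, 3.74% of probes passed limma at 7 h and 5.67% at 24 h, and 0 of the 10 members. The study's own rule, the test its methods name at the same level with that fold, was met by 2.66% and 2.09% of probes and again by 0 members. Without the fold, that test passed Bax and Bak1 at both times and Mcl1, a protective member, at 24 h, all as higher. Of the 30367 probes, 1752 passed it in the higher direction at 7 h and 1341 at 24 h. Because the numbers are relative to the array median, they hold for that scaling. Scaling on the spike-in control moved the median of all probes to -0.86 at 7 h and -1.01 at 24 h, from -0.06 and 0.01. It turned every positive value except Bcl2l11 at 7 h negative, but no member passed under it. That scaling rests on 1 spike-in, whose log2 level relative to the array median ran from 1.85 to 6.32 within the OGD 24h arrays.

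**Figure D1:**
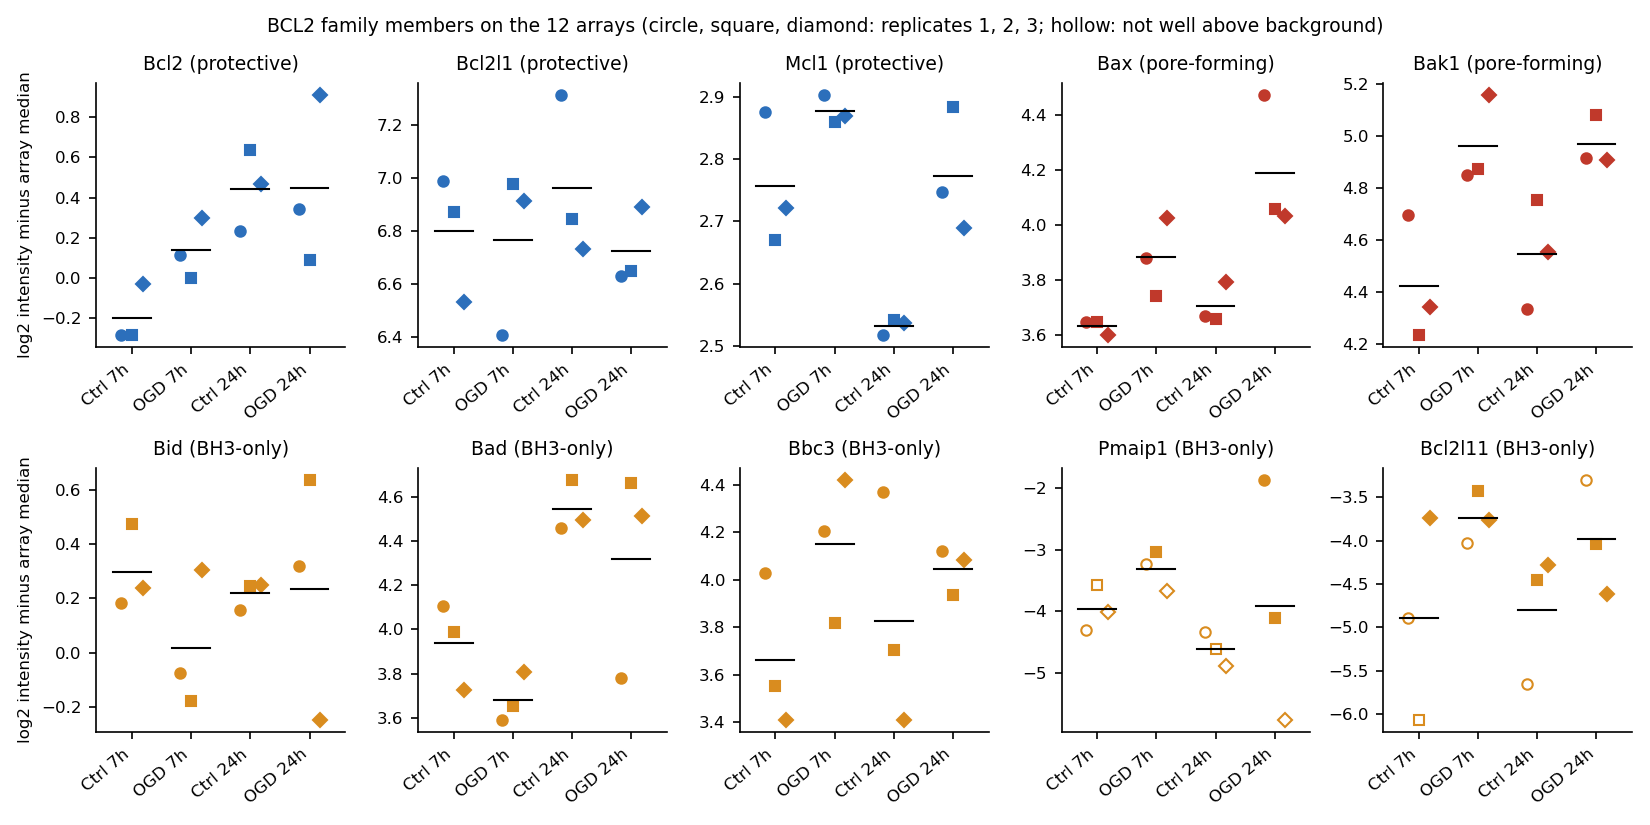
Log2 intensity minus the array median (vertical axis, a different range in each panel) of the 10 members in the 4 groups, 1 symbol per array and a line at the group mean. The OGD symbols of Bax and Bak1 lie above all Ctrl symbols of the same time, and the hollow symbols show that Pmaip1 and Bcl2l11 were often not well above background.

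Bax, which forms the pore together with Bak1, was read by probe A_43_P11800. At 7 h its values were 3.65, 3.65 and 3.60 in Ctrl and 3.88, 3.75 and 4.03 in OGD for replicates 1, 2 and 3. The groups did not overlap, but the fitted difference of 0.25 ± 0.17 on the log2 scale (SE, n = 3 arrays a group) did not pass (limma adjusted p = 0.575). At 24 h the values were 3.67, 3.66 and 3.79 in Ctrl and 4.47, 4.06 and 4.03 in OGD. The OGD arrays were again all above the Ctrl arrays, and OGD replicate 1 was the highest. The fitted difference was 0.48 ± 0.17, a 1.40-fold higher level (95% confidence interval of the log2 difference 0.10 to 0.86, limma adjusted p = 0.303). OGD exceeded Ctrl on each of the 3 slides, by 0.81, 0.40 and 0.24. Of the 8 vascular or fibroblast markers, 1 was higher at 24 h and none lower, against 7.51% and 6.19% of all probes. Their median was 0.33. On the same slides Pdgfrb, the one that passed, differed by 2.03, 1.13 and 0.84. The collagen gene Col1a1, which did not pass, differed by 2.73, 1.22 and 0.56. These genes were picked after their values were seen. Pecam1, Kdr and Dcn of the same list went the other way at 24 h, with fitted differences of -0.32, -0.86 and -0.73. Medians at 24 h were -0.29 for the astrocyte, 0.24 for the microglia and 0.14 for the oligodendrocyte markers. The part of any of these cell types in the Bax difference was not tested. With the slide as a block the value and the call were the same. The call was lost without Ctrl 24h replicate 2, where the difference was 0.46, and when the 24 h arrays were fitted without the 7 h arrays. The exact permutation test of 3 arrays against 3 gave p = 0.1, two-sided, the smallest p it can give, as it does wherever the groups do not overlap. It was kept without OGD 24h replicate 1, the dimmest array, where the difference was 0.34.

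Bak1, the other pore-forming gene, was read by probe A_43_P12940. At 7 h the Ctrl values were 4.69, 4.23 and 4.34 and the OGD values 4.85, 4.87 and 5.16. All OGD arrays were above all Ctrl arrays, with Ctrl replicate 1 the nearest to them. The difference was 0.54 ± 0.19, or 1.45-fold (interval 0.12 to 0.96, limma adjusted p = 0.331), and the 3 slides gave 0.16, 0.64 and 0.81. The slide as a block left the call in place. It rested on few arrays, since it was lost without Ctrl 7h replicate 2 (0.44), without Ctrl 7h replicate 3 (0.50) or without OGD 7h replicate 3 (0.44).

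At 24 h Bak1 read 4.33, 4.75 and 4.55 in Ctrl and 4.92, 5.08 and 4.91 in OGD. The groups did not overlap, and slide differences were 0.58, 0.33 and 0.35. The fitted value of 0.42 ± 0.19 (interval -0.00037 to 0.84) lay just outside the threshold (limma adjusted p = 0.365). It passed when arrays were centred on the 75th percentile or quantile normalized, with 0.53 in either case. With normexp background correction and an offset of 50, in contrast, Bak1 read -0.03 at 7 h and -0.01 at 24 h, and Bax -0.28 at 7 h and 0.07 at 24 h. Bax and Bak1 were the 2 of 10 members whose OGD arrays all lay above the Ctrl arrays at both times, against 3.32% of all probes. At 7 h 3 of 10 members did so, Bcl2 being the other one, against 10.6% of all probes, and at 24 h 3 of 10, with Mcl1, against 10.9%. For 0 of 10 members did the OGD arrays all lie below, at either time, against 15.5% of all probes at 7 h and 7.01% at 24 h.

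The 250 bases before the Bak1 start in RefSeq's GRCr8 assembly (chr20:5110975-5111224, minus strand) are shown because Bak1 is the member called at 7 h, and those of Bcl2l11 (chr3:135819792-135820041, plus strand) because it had the largest fitted difference of the 10 members, on a dim probe. Capitals mark a match to a motif.

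Bak1: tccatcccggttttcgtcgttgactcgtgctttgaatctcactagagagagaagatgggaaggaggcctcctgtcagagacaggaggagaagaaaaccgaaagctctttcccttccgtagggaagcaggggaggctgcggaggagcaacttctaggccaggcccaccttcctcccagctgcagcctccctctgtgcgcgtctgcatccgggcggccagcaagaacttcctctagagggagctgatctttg

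Bcl2l11: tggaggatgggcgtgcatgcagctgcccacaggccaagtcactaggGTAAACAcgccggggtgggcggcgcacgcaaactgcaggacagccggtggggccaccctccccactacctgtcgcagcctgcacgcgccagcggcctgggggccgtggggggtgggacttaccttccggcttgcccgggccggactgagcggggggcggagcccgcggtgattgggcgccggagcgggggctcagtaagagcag

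Both strands were searched for the AP-1 motif (TGACTCA or TGAGTCA), the FOXO motif (GTAAACA), the cAMP response element (TGACGTCA) and the core of the hypoxia element (ACGTG), of which 4.05%, 3.21%, 1.59% and 16.6% of the 33469 windows of this length held at least 1. Windows were matched for 8 of the 10 members, not for Bax and Bbc3. The Bak1 window held none of these letters. The Bcl2l11 window held 1 FOXO match, which begins 204 bases before the start, and the Bad window held 1 on the opposite strand. The ACGTG core was found before Bcl2, and before 1 of the 4 starts listed for Bcl2l1. A match is a description of the letters and was not tied to any value on the arrays. GC content was 57.6% before Bak1 and 72% before Bcl2l11, where the median of all windows was 51.2%.

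Among the protective genes, no difference passed the test at either time. Bcl2, the founding member and an inhibitor of the pore, was read by probe A_64_P005952. Its 7 h values were -0.28, -0.28 and -0.03 in Ctrl and 0.12, -0.0023 and 0.30 in OGD. Every OGD array was above every Ctrl array and the 3 slides gave 0.40, 0.28 and 0.33, but the difference of 0.34 ± 0.23 was within the spread that limma estimated (interval -0.17 to 0.84, limma adjusted p = 0.568). At 24 h the values of 0.23, 0.64 and 0.47 in Ctrl and 0.34, 0.09 and 0.91 in OGD overlapped throughout. The fitted difference there was 0.0029 ± 0.23 (interval -0.50 to 0.50, limma adjusted p = 1), and the slides disagreed in sign, with 0.11, -0.55 and 0.45.

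Mcl1 codes for a short-lived protective protein and was read by probe A_44_P101211. At 7 h it read 2.88, 2.67 and 2.72 in Ctrl and 2.90, 2.86 and 2.87 in OGD, which overlapped (0.12 ± 0.15, interval -0.20 to 0.44, limma adjusted p = 0.768). At 24 h it read 2.52, 2.54 and 2.54 in Ctrl and 2.75, 2.88 and 2.69 in OGD. These groups did not overlap and the slides gave 0.23, 0.34 and 0.15, yet the value of 0.24 ± 0.15 did not pass under the spread shared over groups (interval -0.08 to 0.56, limma adjusted p = 0.47). It passed after quantile normalization (0.34) and with the test that the study's methods name.

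Bcl2l1 codes for Bcl-xL and was read by 4 probes, of which A_64_P054735 was the brightest. Its 7 h values of 6.99, 6.87 and 6.53 in Ctrl and 6.41, 6.98 and 6.91 in OGD overlapped (-0.03 ± 0.23, interval -0.54 to 0.48, limma adjusted p = 0.961). At 24 h it read 7.31, 6.84 and 6.73 in Ctrl and 6.63, 6.65 and 6.89 in OGD, again overlapping (-0.24 ± 0.23, interval -0.75 to 0.27, limma adjusted p = 0.645). The second probe for the same transcript gave -0.09 and -0.25 at 7 h and 24 h. The probes for the other transcripts gave 0.37 and -0.23 in one case and -0.32 and 0.25 in the other, and none of the 4 passed at either time.

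The BH3-only genes split into well measured and dim ones. Bbc3 (Puma), which binds all protective proteins, was read by probe A_44_P437945 and had the largest difference of the 3 bright members at 7 h. Its 7 h values were 4.03, 3.55 and 3.41 in Ctrl and 4.21, 3.82 and 4.42 in OGD. OGD was above Ctrl on each slide, by 0.18, 0.27 and 1.01, but the groups overlapped because Ctrl replicate 1 was above OGD replicate 2. The fitted difference was 0.49 ± 0.27 (interval -0.12 to 1.09, limma adjusted p = 0.503). It passed with the 75th percentile (0.60), with quantile normalization (0.59) and without Ctrl 7h replicate 1 (0.67). At 24 h it read 4.37, 3.70 and 3.41 in Ctrl and 4.12, 3.94 and 4.08 in OGD (0.22 ± 0.27, interval -0.39 to 0.83, limma adjusted p = 0.74). There the Ctrl arrays spread over a wider range than the difference, and the slides gave -0.25, 0.23 and 0.67.

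Bid, which links death receptors to mitochondria after caspase cleavage, was read by probe A_44_P550497. It read 0.18, 0.48 and 0.24 in Ctrl 7h and -0.07, -0.18 and 0.31 in OGD 7h (-0.28 ± 0.23, interval -0.80 to 0.24, limma adjusted p = 0.654). At 24 h the Ctrl values of 0.16, 0.25 and 0.25 lay inside the OGD values of 0.32, 0.64 and -0.25 (0.02 ± 0.23, interval -0.50 to 0.54, limma adjusted p = 1). Bad, which is held inactive by phosphorylation in cells that receive survival signals, was read by probe A_44_P991565. It read 4.10, 3.99 and 3.73 in Ctrl 7h and 3.59, 3.65 and 3.81 in OGD 7h (-0.26 ± 0.23, interval -0.77 to 0.26, limma adjusted p = 0.684). At 24 h it read 4.46, 4.68 and 4.49 in Ctrl and 3.78, 4.66 and 4.51 in OGD (-0.22 ± 0.23, interval -0.74 to 0.29, limma adjusted p = 0.675). The negative value at 24 h came from OGD replicate 1, without which it was 0.04.

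Pmaip1 (Noxa), which neutralizes Mcl1, and Bcl2l11 (Bim), which binds all protective proteins, were the dim members, with mean intensities of 12.2 and 9.22 units. The other 8 were well above background on all 12 arrays. Probe A_64_P162029 for Pmaip1 was well above background on 0 of 3 Ctrl 7h, 1 of 3 OGD 7h, 0 of 3 Ctrl 24h and 2 of 3 OGD 24h arrays. Its values were -4.31, -3.58 and -4.01 in Ctrl 7h and -3.23, -3.04 and -3.66 in OGD 7h. At 24 h they were -4.34, -4.61 and -4.89 in Ctrl and -1.86, -4.10 and -5.77 in OGD. No fold is given, because most of these values were not well above background. OGD 24h replicate 1 was far above and replicate 3 below all Ctrl arrays, and no difference passed (limma adjusted p = 0.748 at 7 h and 0.678 at 24 h). Without OGD 24h replicate 1 the fitted difference at 24 h was -0.33, and without OGD 24h replicate 3 it was 1.63 and passed. The 7 h difference passed with normexp, and when the 7 h arrays were fitted without the 24 h arrays.

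Bcl2l11, read by probe A_44_P508055, was well above background on 1, 2, 2 and 2 of 3 arrays in Ctrl 7h, OGD 7h, Ctrl 24h and OGD 24h. It read -4.89, -6.07 and -3.74 in Ctrl 7h and -4.03, -3.43 and -3.77 in OGD 7h. The OGD arrays lay close together, while the Ctrl arrays spread over more than 2 log2 units and Ctrl replicate 3 was inside the OGD range. The fitted difference of 1.16 ± 0.57, the largest among the 10 members, rests on a probe that 1 of the 3 Ctrl arrays measured well above background (interval -0.10 to 2.41, limma adjusted p = 0.457). It was 0.57 without Ctrl 7h replicate 2, and 1.74 without Ctrl 7h replicate 3, where it passed. It passed as well with quantile normalization (1.44) and with normexp at an offset of 50 (0.96). At 24 h the values were -5.66, -4.45 and -4.29 in Ctrl and -3.30, -4.04 and -4.62 in OGD (0.81 ± 0.57, interval -0.45 to 2.07, limma adjusted p = 0.53), and the slides gave 2.36, 0.42 and -0.33.

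**Figure D2:**
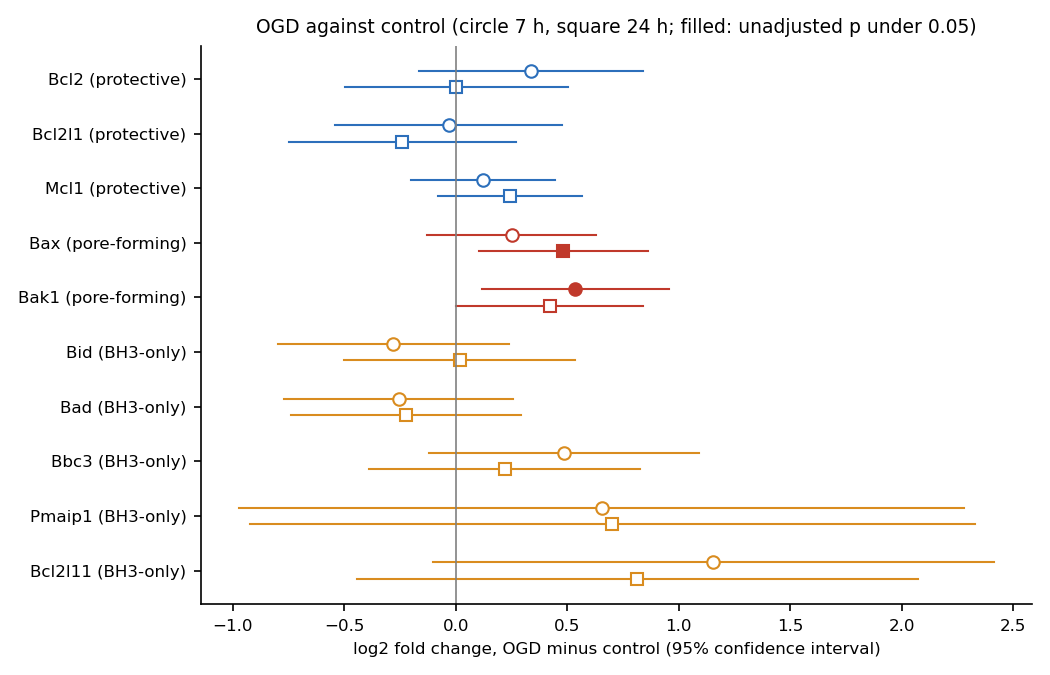
Log2 fold change of OGD over control (horizontal axis) with the 95% confidence interval for each member, circles for 7 h and squares for 24 h, filled where the unadjusted limma p was under 0.05. The filled symbols are Bak1 at 7 h (0.54) and Bax at 24 h (0.48), and the widest intervals belong to the dim Pmaip1 and Bcl2l11.

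The study of the family as a balance compares members that protect with members that kill. The fitted difference was positive for 2 of 3 protective and 5 of 7 killing members at 7 h, and for 2 of 3 and 6 of 7 at 24 h. The median over the 10 members was 0.29 at 7 h and 0.23 at 24 h, where the median over all probes was -0.06 and 0.01. On the slides of replicates 1, 2 and 3, the mean difference of the 7 killing members exceeded that of the protective members by 0.30, 0.26 and 0.10 at 7 h (mean 0.22 ± 0.11, SD over 3 slides). At 24 h the excess was 0.89, 0.46 and -0.31 (0.35 ± 0.61), so the slides did not share a direction, and the value was 0.12 without OGD 24h replicate 1 and 0.65 without OGD 24h replicate 3. No test was made of these means, since the members were chosen with results known.

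The excess at 7 h was not seen without the dim genes. Without Pmaip1 and Bcl2l11, a choice made after seeing the data, the remaining 5 killing members exceeded the protective members by 0.01, -0.19 and 0.19 on the 3 slides at 7 h (0.0051 ± 0.19), and by 0.24, 0.40 and -0.10 at 24 h (0.18 ± 0.25). The ratio of Bax to Bcl2, which is often used as an index of this balance, changed after OGD by -0.17, -0.19 and 0.10 on the log2 scale at 7 h and by 0.69, 0.95 and -0.20 at 24 h. Its mean was -0.09 ± 0.16 and 0.48 ± 0.60 (SD over 3 slides). In both cases the slide of replicate 3 differed in sign from the others, and at 24 h the spread was larger than the mean.

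**Figure D3:**
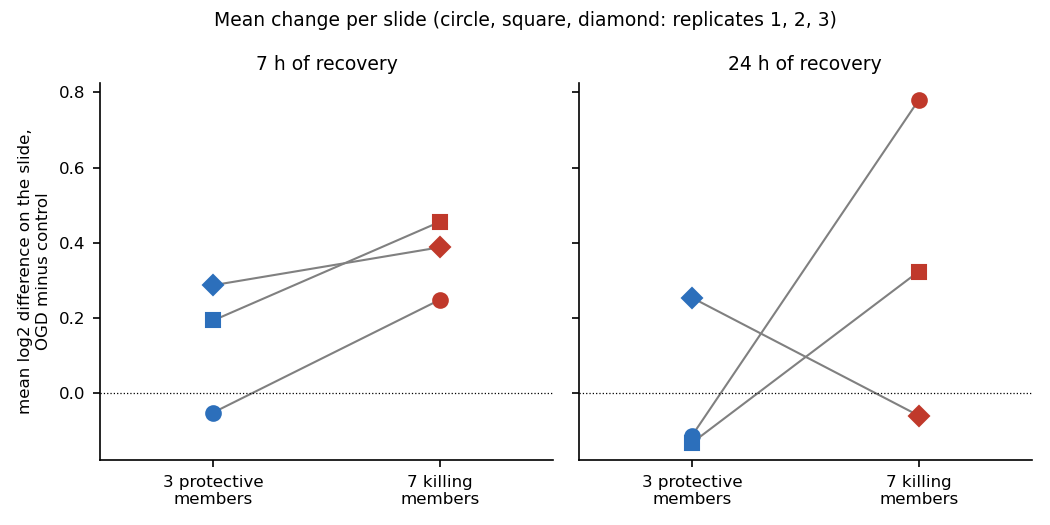
Mean log2 difference, OGD minus control, of the 3 protective and the 7 killing members on each slide (vertical axis), with a line joining the means of 1 slide. All 3 lines ascend at 7 h, and at 24 h the slide of replicate 3 goes the other way (0.25 for protective and -0.06 for killing members).

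Whether the response differed between 7 h and 24 h was tested with the interaction term of the same fit. It passed for 0 of 10 members, against 3.58% of all probes, and the largest member difference between the times was -0.34, for Bcl2l11. The call of Bak1 at 7 h and of Bax at 24 h therefore does not show that their timing differed: the 24 h minus 7 h difference was -0.12 ± 0.27 for Bak1 and 0.23 ± 0.24 for Bax. Between the control groups, Bcl2, Bax and Bad read higher on every Ctrl 24h than on every Ctrl 7h array, 3 of 10 members against 14% of all probes. Mcl1 and the dim Pmaip1 read lower on every one, 2 of 10 against 16.4%. The day of the scan cannot be told apart from these differences.

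The scaling of the arrays changed several directions. Relative to the array median, the 75th percentile and quantile scalings kept the direction of every member value except that of Bcl2l1 at 7 h, which was 0.08 with the 75th percentile. Normexp correction turned Mcl1, Bak1 and Bbc3 negative at both times, Bax at 7 h and Bid at 24 h. With spike-in scaling Bax read -0.56 and -0.54 and Bak1 -0.27 and -0.60 at 7 h and 24 h, that is, above the median of all probes under the same scaling.

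**Figure D4:**
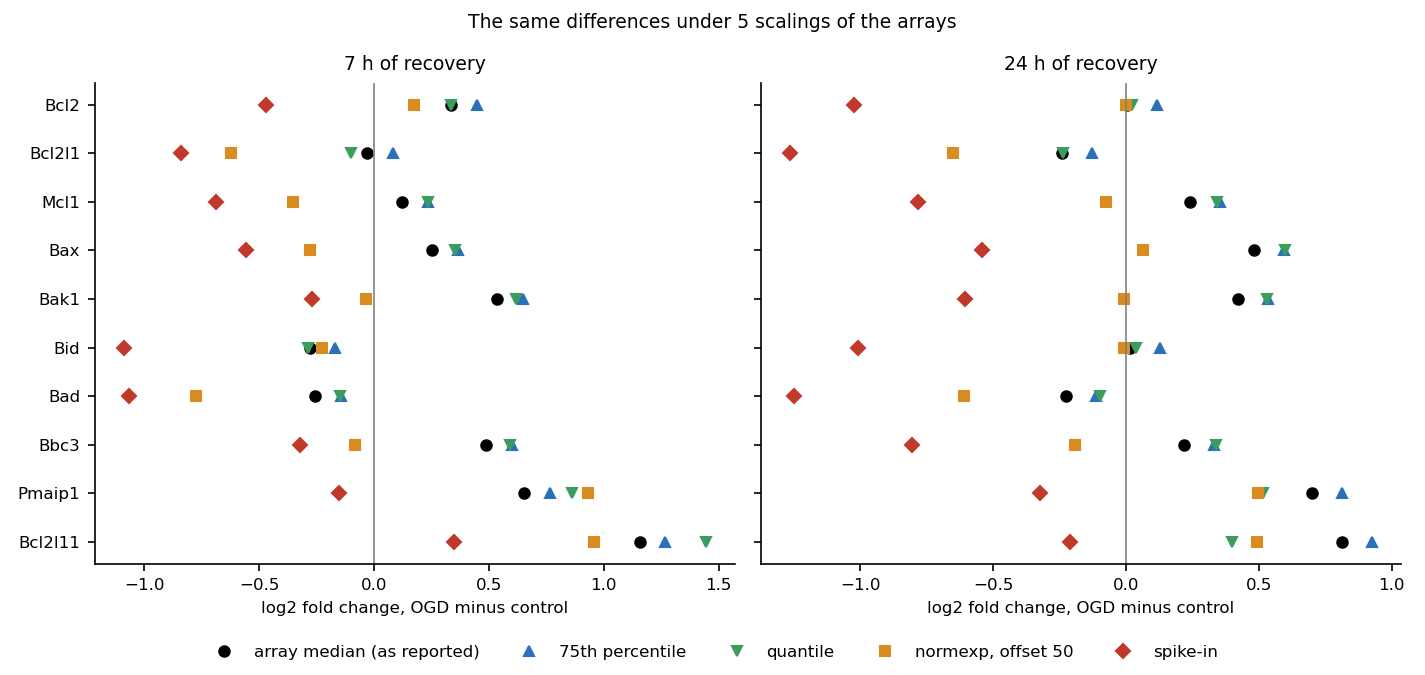
Log2 fold change of OGD over control (horizontal axis) of each member under 5 scalings of the same arrays, at 7 h and 24 h. Spike-in scaling lies to the left of the array median for each member at both times, and the other scalings lie on either side of it, with values for Bak1 at 7 h of 0.54 (array median), 0.65 (75th percentile), 0.62 (quantile), -0.03 (normexp with an offset of 50) and -0.27 (spike-in).

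Other genes of the pathway were read from 3 lists: relatives of the family, the mitochondrial steps that follow the pore, and regulators of the family. Of 12 relatives measured, none passed at 7 h, and at 24 h 1 was higher and 1 lower, with list medians of -0.21 and 0.04. Hrk, a BH3-only gene expressed in neurons, read 2.57, 2.36 and 2.34 in Ctrl 24h and 0.48, 2.35 and 1.69 in OGD 24h. The groups overlapped and replicate 1 carried most of the fitted difference of -0.92 ± 0.39 (limma adjusted p = 0.341), which was -0.40 without that array and no longer passed. A second, dimmer Hrk probe gave 0.38. Bcl2l12, a divergent relative, was higher on all 3 OGD arrays at 24 h (1.62, 1.57 and 1.66 in Ctrl, 2.40, 1.95 and 2.18 in OGD), by 0.56 ± 0.20 (limma adjusted p = 0.298). Bmf, a BH3-only gene, had the highest fitted value of the list at 24 h, 1.19 ± 0.66 (limma adjusted p = 0.437), with every OGD array above every Ctrl array, but it did not pass and was well above background on 2 of 3 arrays in either group. Bok, the third pore-forming relative, read 0.26 at 7 h and 0.50 at 24 h without passing. Bcl2a1 was well above background on no array.

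Downstream of the pore, 2 of 13 genes were higher and 1 lower at 7 h, against 4.79% and 7.03% of all probes. At 24 h 1 was higher and none lower, against 7.51% and 6.19%. The list medians were -0.10 and -0.24. None of the 5 factors released from mitochondria and none of the 3 outer membrane channels passed at either time, and Cycs, which codes for cytochrome c, read 0.05 and -0.31. The probe of the channel Vdac1 was saturated on 3 of 3 Ctrl 7h, 1 of 3 OGD 7h, 2 of 3 Ctrl 24h and 1 of 3 OGD 24h arrays.

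The apoptosome genes did not move together. Apaf1, its scaffold, read 1.44, 1.61 and 1.45 in Ctrl 7h and 1.88, 2.17 and 2.18 in OGD 7h, higher by 0.58 ± 0.20 (limma adjusted p = 0.322), and -0.23 ± 0.20 at 24 h. A second Apaf1 probe gave -0.02 and -0.11. Casp9, the caspase that Apaf1 activates, read 1.00, 1.34 and 1.14 in Ctrl 7h and 0.37, 0.63 and 0.66 in OGD 7h, lower by 0.61 on the log2 scale (difference -0.61 ± 0.23, limma adjusted p = 0.348), and its second probe also passed, with -0.88. The call of the first probe was lost with the 75th percentile (-0.49), without Ctrl 7h replicate 2 (-0.52) and without OGD 7h replicate 1 (-0.52). Birc3, an inhibitor of apoptosis induced by NF-kB, had the largest differences of the list. It read -2.02, -2.18 and -1.14 in Ctrl 7h and -1.10, -1.34 and 0.86 in OGD 7h (1.25 ± 0.52, limma adjusted p = 0.393), where OGD replicate 3 stood apart and the value without it was 0.55 and did not pass. At 24 h it read -1.96, -2.38 and -1.78 in Ctrl and -0.61, -1.29 and -0.63 in OGD, which did not overlap (1.20 ± 0.52, limma adjusted p = 0.354). That call was kept in 6 of 12 fits that left out 1 array, with differences from 1.03 to 1.42 over the 12, and was lost after quantile normalization (1.12). Xiap and Birc2 did not pass at either time.

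Of 15 regulators measured, 1 was higher at 7 h and another lower, against 4.79% and 7.03% of all probes. At 24 h none was higher and 1 was lower, against 7.51% and 6.19%. The list medians were -0.14 and -0.18. Jun, a transcription factor activated by JNK, read 4.92, 4.97 and 5.19 in Ctrl 7h and 6.28, 5.68 and 5.54 in OGD 7h (0.80 ± 0.34, limma adjusted p = 0.404), and the groups did not overlap. Its call was kept in 4 of 12 fits that left out 1 array, with differences from 0.58 to 0.95 over the 12, and was lost with the 75th percentile (0.92), quantile normalization (0.83) and normexp (0.20). Casp8, which cleaves Bid, was lower at 7 h (difference -1.35 ± 0.47, limma adjusted p = 0.322), but it is a dim probe with a mean intensity of 18.9 units that was well above background on 1 of 3 OGD 7h arrays. Mapk10, the neuronal JNK, read 4.56, 4.39 and 4.39 in Ctrl 24h and 2.90, 3.86 and 3.46 in OGD 24h. It was lower on every slide, and its difference of -1.04 ± 0.26 had the lowest p of these lists (limma adjusted p = 0.259). Foxo3, whose motif was searched above, read 0.16 and 0.34 and did not pass.

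**Figure D5:**
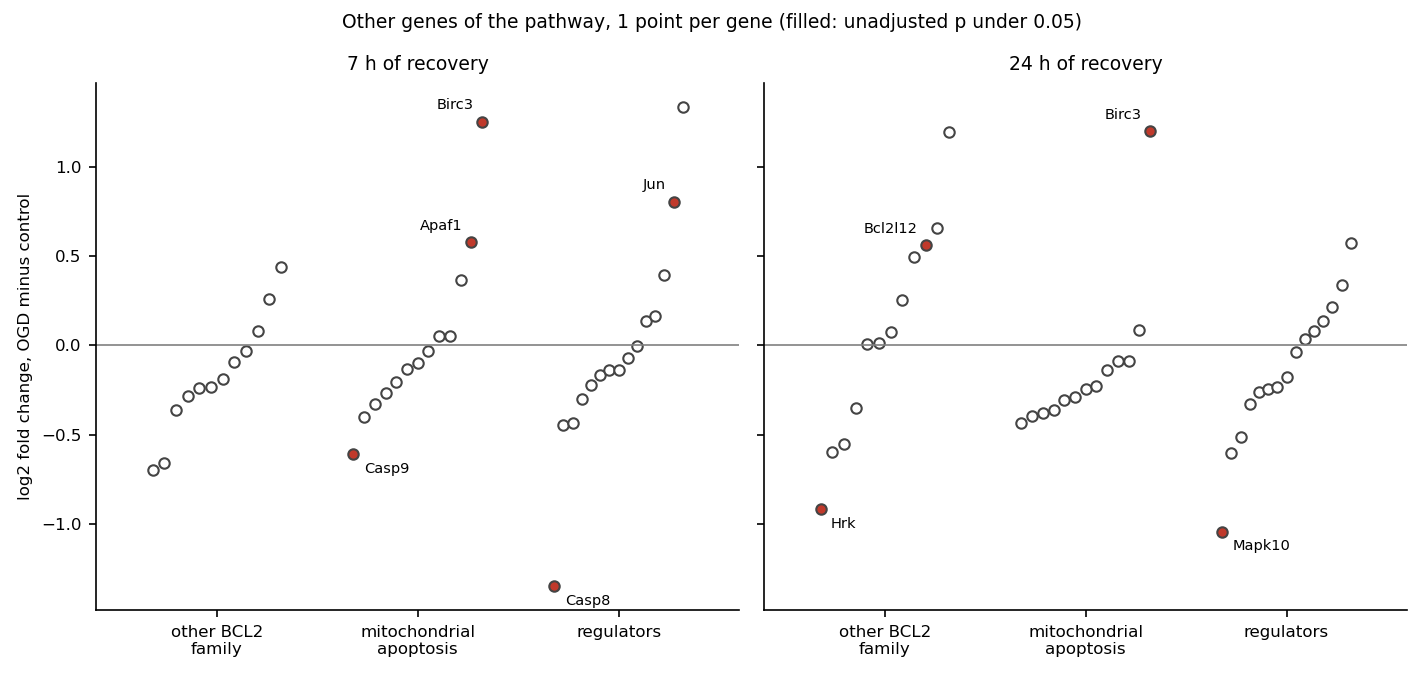
Log2 fold change of OGD over control (vertical axis) for each measured gene of the 3 lists, sorted within a list, at 7 h and 24 h; filled and named points had an unadjusted limma p under 0.05. Birc3 is filled at both times, although its call was kept in 9 of 12 fits at 7 h and 6 of 12 at 24 h when 1 array was left out, and most other genes lie close to 0.

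The genes whose values ran most like those of the called members over the 12 arrays were named from 15153 others as a description. For Bak1 they were Nfkbia, Jpt2, Eif4a1, Lrch1 and Zc3h12a, with Pearson r between 0.874 and 0.9. For Bax they were Gpx8, Layn, Slc4a1, Dnph1 and Gstp1, with r between 0.937 and 0.957. The 12 arrays share their 4 groups and 2 scan days, which such a correlation includes.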

How the data were processed

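The authors labelled 200 ng of RNA per culture with Cy3, hybridized it to Agilent rat arrays and read them with Feature Extraction 10.5.1.1, and the deposited intensity values are the background-subtracted, detrended signals of that software. The log2 values that the authors also deposited are the same signals moved by 1 constant per array, and were used as an alternative. The study's methods describe this step as median centring, and the array medians of these values ran from 7.57 to 7.72. Here, log2 intensity was averaged over the spots of a probe without outlier spots and centred on the median of each array, and 70 of 364404 values were missing. Probes were named through RefSeq accessions (18004 named, 12363 not). The fit took all 12 arrays as 4 groups in limma 3.58.1 (R 4.3.3), and the script was tested on simulated data. Named genes were the 10 members, and from the other lists those with p under 0.05 at either time. Bmf, Bok, Bcl2a1, Cycs, Vdac1, Xiap, Birc2, Foxo3, Ptprc, Pdgfrb, Col1a1, Pecam1, Kdr and Dcn were named in addition after their values were seen. Members and lists were chosen with earlier results of these data known, and some genes of the lists are not reported here. Normexp used the median signal, and p-values rest on 3 arrays a group. No dim probe was filtered out. Alternatives were 5 scalings or values, outlier spots kept, a filter on dim probes, the methods' t-test, limma within each time, slide as a block, averaging a gene's probes, and leaving out each array. The number of arrays limits the precision.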

Additional observations from a re-analysis of the deposited data

Results flagged for a closer look

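Apaf1, the scaffold of the apoptosome, passed limma's interaction term at an unadjusted p under 0.05, as did 3.58% of all probes. The 24 h minus 7 h difference of its log2 fold changes was -0.80 ± 0.28 (adjusted p = 1). OGD was above Ctrl on 3 of 3 slides at 7 h and on 1 of 3 at 24 h. Averaged over both Apaf1 probes the difference was -0.45 and did not pass, so a change of its response with time is not established. Vdac1, whose probe was saturated on some arrays, passed the same term with -0.61 ± 0.26.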

How the results depend on the processing

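Directions are relative to the array median, and the cause of the changes below was not tested. With spike-in scaling, which rests on 1 spike-in and moved the median of all probes to -0.86 and -1.01 at 7 h and 24 h, the log2 differences at 7 h and 24 h were -0.47 and -1.02 for Bcl2, -0.69 and -0.78 for Mcl1, -0.56 and -0.54 for Bax, -0.27 and -0.60 for Bak1, -0.32 and -0.81 for Bbc3, and -0.15 and -0.32 for Pmaip1. Bid read -1.01 and Bcl2l11 -0.21 at 24 h, Apaf1 -0.23 and Jun -0.0038 at 7 h, and Bcl2l12 -0.47 at 24 h. It called 0 members higher at either time, with 74 probes higher and 284 lower at the first time and 20 and 517 at the second, against 1455, 2135, 2280 and 1880 as reported. With normexp and an offset of 50, Mcl1 read -0.35 and -0.077, Bak1 -0.033 and -0.0066, Bbc3 -0.083 and -0.19, Bax -0.28 and Casp8 0.25 at 7 h, and Bid -0.0069 at 24 h. It called 2 members higher at 7 h and 0 at 24 h, 3682 probes higher at 7 h, 449 higher and 1028 lower at 24 h, and gave 0.34 for killing minus protective members at 7 h. Quantile normalization gave 0.33 for that value and called 3 members higher at each time, with 1733 probes higher at 7 h and 2241 at 24 h. The 75th percentile gave 0.081 for Bcl2l1 at 7 h and called 2 members higher at each time.

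The methods' t-test called 2 members higher at 7 h and 3 at 24 h. It called 1752 probes higher and 2946 lower at 7 h, and 1341 and 582 at 24 h. Its p alone was met by 4698 and 1923 probes at 7 h and 24 h, with the 2-fold rule by 808 and 634, and after Benjamini-Hochberg adjustment by 1 and 0. Limma within each time called 2 members higher at 7 h and 0 at 24 h, 2340 probes higher at 7 h and 760 lower at 24 h. The filter on dim probes and the mean over a gene's probes each called 2 members higher at 24 h. Of the probes that the filter kept, 1958 were higher at 24 h. With the 2 dim members left out, killing minus protective members was 0.0051 at 7 h.

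Leaving out 1 array at a time gave 0 to 2 members higher at 7 h and 1 to 2 at 24 h, with 683 to 2878 probes higher at 7 h and 1330 to 3187 at 24 h, and 1022 to 3521 lower at 7 h and 757 to 3283 at 24 h. The log2 differences ranged from -0.23 to 0.18 for Bcl2, -0.18 to 0.26 for Bid, -0.40 to 0.044 for Bad and -0.33 to 1.63 for Pmaip1 at 24 h, and from -0.17 to 0.15 for Bcl2l1 at 7 h. With the slide as a fixed replicate block, 1 member was higher at each time, 1460 and 2354 probes were higher at 7 h and 24 h and 1741 and 1332 were lower; Hrk lost its call and no member changed its own. As a random replicate block it called 2 members higher at 24 h, Bak1 being added, with 2338 probes higher. Neither the labels nor the study's methods, which name 3 independent cultures as replicates, say whether the replicate numbers pair the arrays. Deviations on a shared slide correlated between -0.05 and 0.17, and not every array correlated best with its own number. With 3 arrays a group such deviations cannot settle the question. Of 30 values followed for single genes, 3 kept direction and side of the threshold in every alternative run, 20 reversed in at least 1, mostly under spike-in scaling or normexp, and 7 lost or gained a call in at least 1 without reversing. No member was lower, or differed between times, at p under 0.05 in any alternative run.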
